A study of Homo sapiens with 8 samples.

Results

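The RNAs described here are the 209 most abundant long non-coding transcripts and kindred unclassified RNAs of HEK293T cells. They were selected on their measured mRNA-seq reads. These were not scaled to transcript length, so abundance here means reads and favours long RNAs. Of 26188 genes in the count files, 4188 had no row with a coding region and did not belong to the ribosomal, small nuclear, small nucleolar, Y, vault, signal recognition particle or microRNA families or to the known host genes of small nucleolar RNAs. Among those 4188, the row of each gene with the most reads over the 4 mRNA-seq libraries was taken, and the 209 genes with at least 500 reads in sum were kept. LOC728613 (508 reads) and LINC00263 (500 reads) lay just inside this limit, and SMA4 (495 reads) and ASH1L-AS1 (484 reads) just outside.

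Long non-coding RNAs are transcripts that carry no annotated protein-coding region. Many of them, but not all, are capped, spliced and polyadenylated like an mRNA. Some, such as MALAT1, NEAT1 and XIST, work in the nucleus, where they organise nuclear bodies or coat chromatin, and others, such as NORAD, are exported and bind proteins in the cytoplasm. Ribosome profiling sequences the RNA fragments that ribosomes shield from nuclease. Cytoplasmic RNAs classed as non-coding can carry such footprints too, and some have turned out to encode small proteins.

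The HEK293T line derives from human embryonic kidney and carries the SV40 large T antigen. The cells of the control group received vehicle, and those of the arsenite group received 40 µM sodium arsenite, an oxidative stressor that leads to phosphorylation of the initiation factor eIF2, for 30 min. Both groups were grown in the same medium, were chilled and were washed with cycloheximide before detergent lysis. Each group had 2 biological replicates, each with a ribo-seq and an mRNA-seq library, which gives 8 libraries in all.

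On the rows used, mRNA-seq depth ran from 4044004 to 4065612 reads in replicate 1 and from 19681551 to 21987719 in replicate 2. Ribo-seq depth was 1905309 and 7310347 reads for the control replicates and 1028632 and 3083098 for the arsenite replicates. Throughout, a pair of values is replicate 1 and then replicate 2. The HEK293 markers listed were all found, with between 29 and 18087 mRNA-seq reads in sum, VIM being highest and L1CAM lowest. Markers of liver, blood, endothelium and fibroblasts had 0 to 551 reads in sum. The fibroblast marker COL1A1 was highest and exceeded the HEK293 markers KRT8, PAX2, EPCAM and L1CAM, so the lists overlapped. HBB and CD3E were at 0 in every mRNA-seq library. All RNA came from a detergent lysate, and that for mRNA-seq was selected for poly(A). The mRNA-seq values of nuclear RNAs thus depend on which molecules were in the lysate and passed this selection. RNAs without a poly(A) tail were not all removed: the small nuclear RNA RNU2-1 had 643 and 201 mRNA-seq reads in control.

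The names in the count files are older than those in RefSeq (GRCh38.p14), where 178 of the 209 RNAs were found. RefSeq now lists a protein for 16 of them. Another 36 were classed as pseudogenes, 34 by RefSeq and 2 that it did not hold by their type in the count files. Of the other 157, 29 were not found. Several carry newer names, among them LINC00657, now NORAD, and C17orf76-AS1, now SNHG29, one of 6 members since renamed as host genes of small nucleolar RNAs. HNRNPU-AS1 is now an older name of the coding gene HNRNPU itself, which had its own row in the files. Since reads that fitted more than 1 gene were discarded, its counts and those of pseudogenes rest on the reads that told the copies apart.

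First, it was asked how many ribosome footprints these RNAs carried in unstressed cells. They had few footprints for their mRNA-seq reads. Together the 209 RNAs took between 0.729% and 0.899% of the mRNA-seq reads of a library, but only between 0.0659% and 0.157% of the ribo-seq reads. In control, a median member had 29.7 footprints per 1000 mRNA-seq reads, which is 10.5% of the median of 284.3 over the 9535 coding genes with at least 500 mRNA-seq reads. Both assays were counted over the whole transcript for every gene, so transcript length cancels. The mRNA-seq reads that chose the members are also the denominator of this ratio, and the same limit was set for the coding genes.

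The values spread widely among members. There were 63 members with fewer than 10 footprints per 1000 mRNA-seq reads, 118 with 10 to 100 and 28 with 100 or more, whereas 41 of the 9535 coding genes had fewer than 10. Only 3 members lay above the coding median in the pooled control libraries, and 198 of 209 lay below it in both control replicates. In the edgeR quasi-likelihood test of ribo-seq against mRNA-seq reads in control, 188 of the 209 members had fewer footprints than the bulk of genes at a Benjamini-Hochberg adjusted p under 0.05, against 22.4% of the 12979 genes tested. A single member had more, against 16.1% of the genes tested, and 20 were not called. The median member stood at −3.16 on the log2 scale of this test, and the median gene of all those tested at −0.09.

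**Figure D1:**
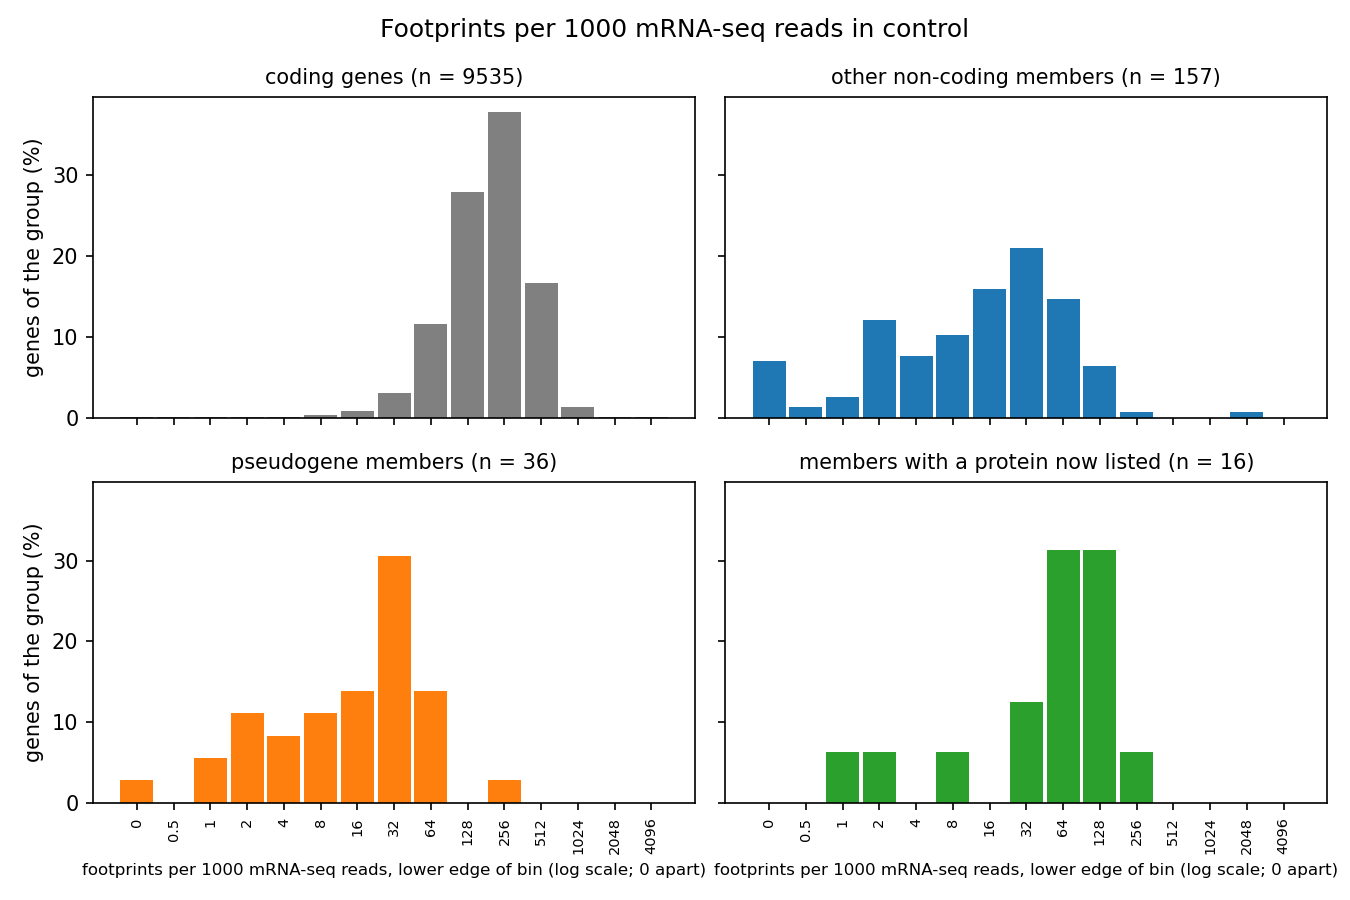
Share of genes (vertical axis, %) by footprints per 1000 mRNA-seq reads in the pooled control libraries (horizontal axis, bins that double in width, with 0 apart) for coding genes and for the 3 classes of members. The coding genes centre near 284.3, most pseudogene and other members are spread from 0 to about 100, and the members with a listed protein lie between them; the single bar at the far right is LINC00324.

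Most nuclear RNAs of known function carried few footprints for their mRNA-seq reads. NEAT1, the scaffold of paraspeckles, had 596 and 4393 mRNA-seq reads in the control replicates and 2 and 7 footprints. After arsenite it had 0 and 17 footprints on 585 and 5316 mRNA-seq reads. Its control ratio was 1.80 per 1000, or 0.634% of the coding median (log2 −7.11 ± 0.55 SE relative to the bulk of genes, adjusted p = 7.45e-35).

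MALAT1, a speckle-associated RNA, had 2569 and 5619 mRNA-seq reads in control with 51 and 53 footprints, and after arsenite 39 and 60 footprints on 2749 and 6286 reads. Scaled to library size, its mRNA-seq level was 656 and 275 counts scaled to 1000000 reads (CPM) in control and 705 and 277 in arsenite. Replicate 1 was thus far above replicate 2 under either treatment, and the treatments lay close together within each replicate. Its 12.7 footprints per 1000 reads in control were 4.47% of the coding median.

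XIST, which coats the inactive X chromosome, had the most mRNA-seq reads of any member, 31686 in sum. It had 27 and 318 footprints on 3143 and 13253 mRNA-seq reads in control and 9 and 202 on 2783 and 12507 in arsenite. Replicate 2 had more footprints per read than replicate 1 under both treatments (24.0 against 8.59 per 1000 in control). TSIX, the RNA transcribed antisense to XIST, had 112 and 309 mRNA-seq reads in control and not 1 footprint in any of the 4 ribo-seq libraries. At this depth 0 footprints allow up to 3, that is 7.13 per 1000 reads.

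The remaining nuclear members were KCNQ1OT1 and HOTAIR, both linked to the silencing of chromatin, and JPX, an activator of XIST. KCNQ1OT1 had 6 and 26 footprints in control on 306 and 1123 reads, and HOTAIR had 1 and 10 on 41 and 399. JPX had 4 and 66 on 60 and 331. JPX was highest of the list at 179 per 1000, and it was the 1 nuclear member not called lower than the bulk of genes (log2 −0.96 ± 0.51 SE, adjusted p = 0.121).

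The median cytoplasmic RNA of the list did not stand above the median nuclear one in footprints per read, but the order of the summed reads differed between replicates. Summed in control, the cytoplasmic RNAs had 24.7 and 13.6 footprints per 1000 mRNA-seq reads and the nuclear RNAs 13.3 and 18.9. NORAD (LINC00657), which binds Pumilio proteins, had 11 and 7 footprints on 764 and 4516 mRNA-seq reads in control, and 12 and 11 on 735 and 5106 in arsenite. Its control replicates stood at 14.4 and 1.55 per 1000, far apart from each other and both under the coding median. OIP5-AS1 had 0 and 8 footprints on 154 and 945 reads in control. FGD5-AS1 had 8 and 69 on 660 and 4373, close to each other at 12.1 and 15.8 per 1000. DANCR had 27 and 83 on 283 and 2469, and in arsenite 1 and 46 on 268 and 2826.

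All 4 cytoplasmic members, 6 of the 7 nuclear ones and all 3 listed for both compartments (TUG1, CRNDE and HOTAIRM1) were called lower than the bulk of genes. The control medians were 11.3 footprints per 1000 mRNA-seq reads for the cytoplasmic, 21.0 for the nuclear and 14.8 for the RNAs of both compartments. On the log2 scale of the test the cytoplasmic median was −4.79 and the nuclear median −4.22. The cytoplasmic values (3.41 to 40.0 per 1000) fell within the range of the nuclear ones (0 to 179), so the lists overlapped. The limit of 3 footprints for TSIX (7.13 per 1000) lies under the nuclear median of 21.0, so setting TSIX there cannot move that median. These lists are short, since 7 of 18 nuclear and 4 of 12 cytoplasmic RNAs found in the files reached 500 reads, and the difference of their medians is given without a test.

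**Figure D2:**
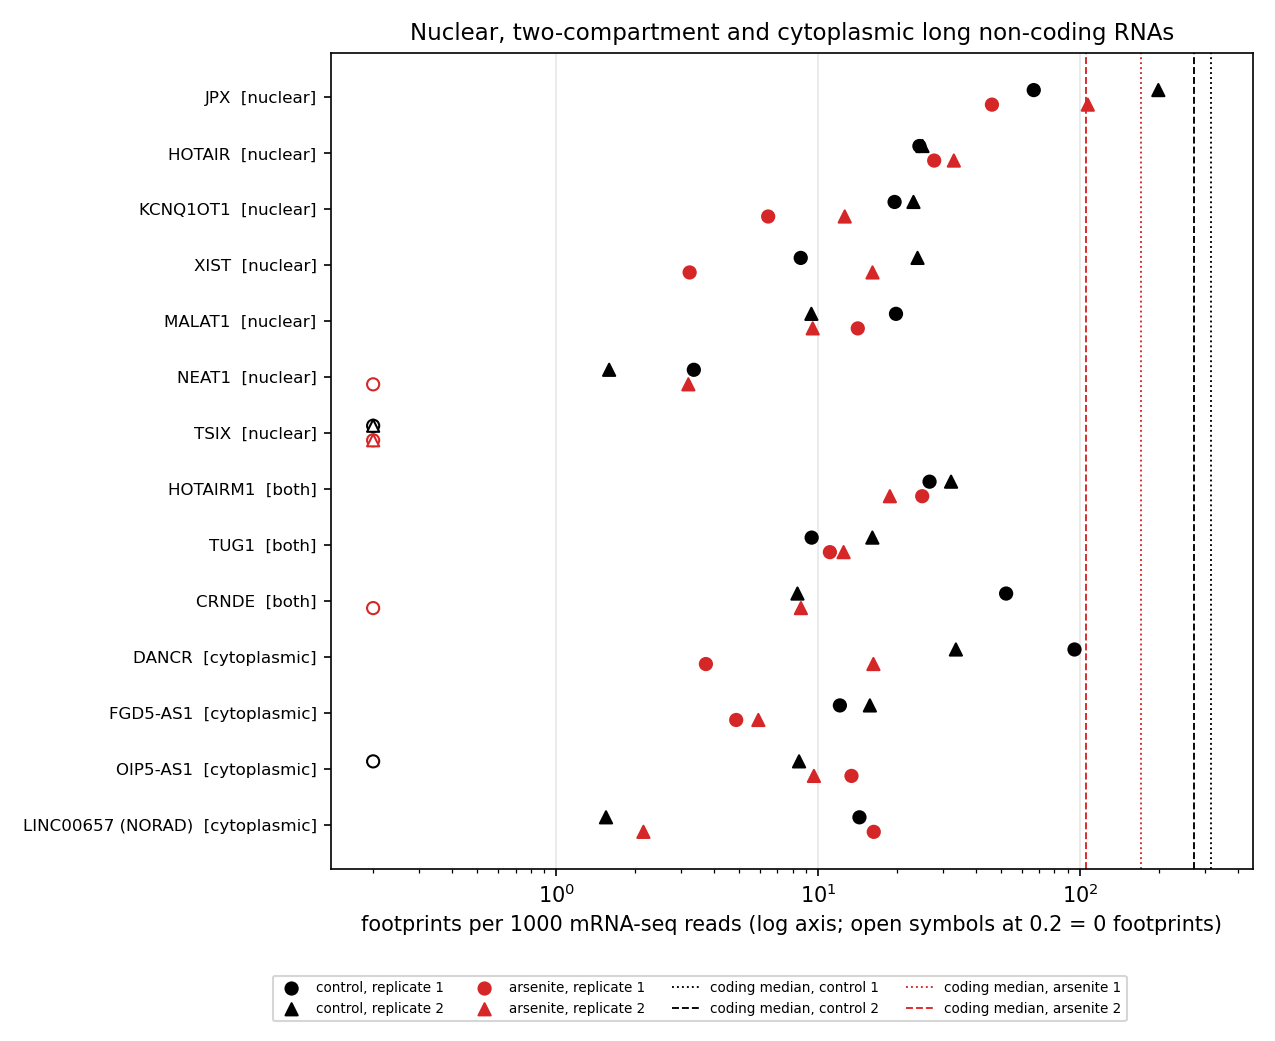
Footprints per 1000 mRNA-seq reads (horizontal log axis) of the 14 members listed as nuclear, of both compartments or cytoplasmic, in control (black) and arsenite (red), replicate 1 as circles and replicate 2 as triangles, with open symbols for 0 footprints and vertical lines for the coding medians of each library pair. In control each RNA lies left of its coding median (315.8 in replicate 1 and 272.3 in replicate 2), and the cytoplasmic RNAs lie within the range of the nuclear ones.

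The members that RefSeq now lists as protein-coding came nearest to the coding genes. Their median was 108 footprints per 1000 mRNA-seq reads, 37.9% of the coding median, against 20.3 for pseudogenes and 27.1 for the others. On the log2 scale of the test, the class medians were −1.09, −3.73 and −3.27. Of the 16, 9 were called lower and 7 were not. Of the 36 pseudogenes 34 were called lower, and of the other 157 members 145 were. Among the 28 members with at least 100 footprints per 1000 reads, 10 had a listed protein, 1 was a pseudogene and 17 were neither.

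SMIM26 (LINC00493), a small integral membrane protein, had 144 and 319 footprints on 411 and 1029 mRNA-seq reads in control, or 350 and 310 per 1000. Both replicates lay above the coding medians of their libraries (315.8 and 272.3). Its difference from the bulk of genes was small against its error (log2 0.23 ± 0.36 SE, adjusted p = 0.641).

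MTLN (LINC00116), a mitochondrial microprotein, had 32 and 39 footprints on 67 and 250 mRNA-seq reads in control. The replicates straddled the coding medians, at 478 and 156 per 1000. NBDY (LOC550643), a component of the mRNA decapping complex, had 28 and 166 footprints on 136 and 889 reads, and its replicates were close at 206 and 187 per 1000. MCTS2 (PSIMCT-1), a retrocopy of MCTS1, had 11 and 46 on 31 and 204. None of these 3 was called (adjusted p = 0.912, 0.306 and 0.959 in the edgeR test).

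SMIM30 (LOC401397), a membrane microprotein of the endoplasmic reticulum, had 112 and 231 footprints on 457 and 2427 mRNA-seq reads in control. Its replicates were far apart, at 245 and 95.2 per 1000, and it was called lower (log2 −0.89 ± 0.37 SE, adjusted p = 0.0424), a call that was lost without the replicate block, with DESeq2 and with no filter on low counts. CEBPZOS (LOC100505876) stood at 159 and 103 per 1000 and MRFAP1L2 (LOC93622) at 122 and 100, both called lower (adjusted p = 0.00801 and 0.00312). NCBP2AS2 (LOC152217) stood at 198 and 142 and was not called.

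A listed protein did not go with many footprints in every case. TUG1, for which a protein is listed too, had 12 and 81 footprints on 1269 and 5022 mRNA-seq reads, 14.8 per 1000. BRD3OS (LINC00094) had 34.7 per 1000 and ZNF738 53.0. INAFM2 (LOC100505573) had 0 and 1 footprints on 51 and 240 reads. HNRNPU-AS1 had 2 and 3 footprints on 336 and 4662 reads, 1.00 per 1000. All reads were counted over the whole RNA, whatever part of it the listed coding region takes up.

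**Figure D3:**
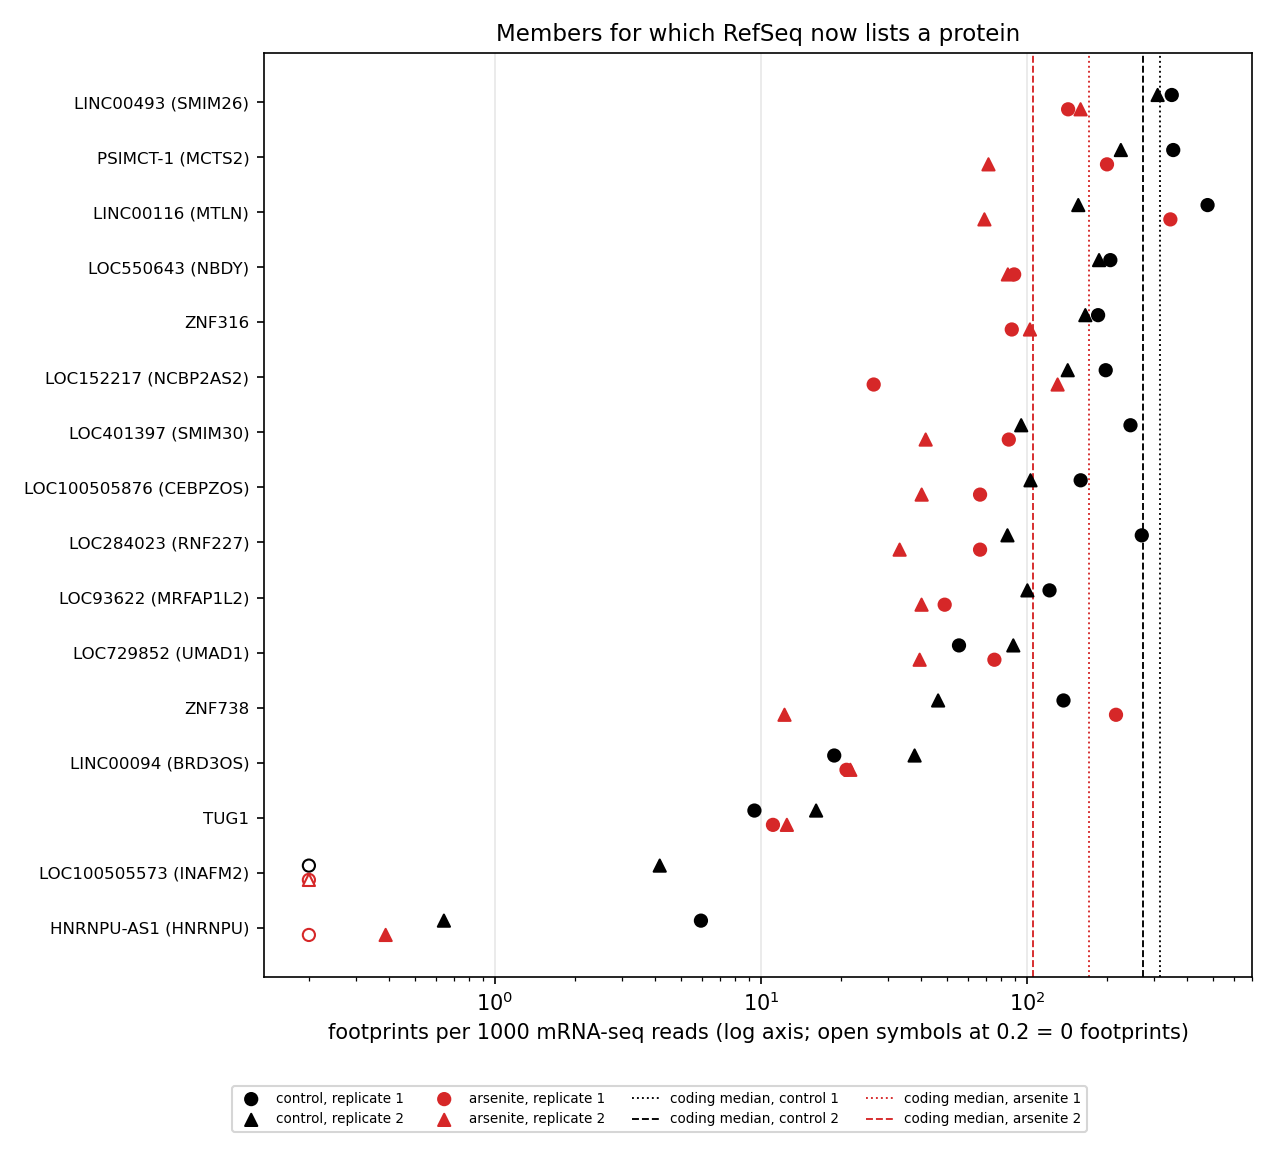
Footprints per 1000 mRNA-seq reads (horizontal log axis) of the 16 members for which RefSeq now lists a protein, ordered by their pooled control value, with symbols and lines as in the plot of nuclear and cytoplasmic RNAs. In control SMIM26 lies at or right of the coding medians in both replicates, and INAFM2 and the non-coding row HNRNPU-AS1 lie at the low end near 0 to 6.

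LINC00324 was unlike any other member. It had only 35 and 473 mRNA-seq reads in control but 156 and 1792 footprints, which makes 4457 and 3789 footprints per 1000 mRNA-seq reads. Both replicates lay far above the coding medians of their libraries, and the pooled value exceeded that of 99.97% of the coding genes. The test gave a log2 value of 3.87 ± 0.42 SE with an adjusted p of 2.56e-18. In arsenite its footprints were 14 on 35 mRNA-seq reads in replicate 1 and 1208 on 348 in replicate 2. The ratio in arsenite replicate 1, 400 per 1000, was thus far below the other 3 libraries.

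LINC00324 alone supplied 1948 of the 9368 control footprints of the 209 members. The small structured RNAs left out by the rule also had more footprints than mRNA-seq reads in part. RNU2-1, the U2 spliceosomal RNA, had 734 and 2310 footprints on 643 and 201 mRNA-seq reads in control, and RMRP, the RNA of RNase MRP, had 145 and 618 on 426 and 123. These RNAs lack a poly(A) tail, and their mRNA-seq reads were many more in replicate 1 than in replicate 2. Whether the fragments counted on LINC00324 came from ribosomes was not tested.

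The pseudogene SIMC1P1 (LOC202181) was the third member above the pooled coding median, beside LINC00324 and SMIM26, with 67 and 193 footprints on 151 and 571 mRNA-seq reads in control, or 444 and 338 per 1000. LOC100506057, which RefSeq did not match, followed with 4 and 82 on 23 and 285. Neither was called (adjusted p = 0.355 and 0.868). DLEU1, a long non-coding RNA of the region deleted in chronic lymphocytic leukaemia, had 40 and 52 footprints on 78 and 441 reads, and its replicates differed widely at 513 and 118 per 1000.

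At the other end, 12 members had 0 footprints in both control libraries, and 4 had 0 in all 4 ribo-seq libraries: TSIX, LOC100996595, LOC101060510 and FAM181A-AS1. LOC100996595 had 160 and 492 mRNA-seq reads in control. LOC644617, LOC100996366, ANKRD10-IT1 and FLJ39632 each had 0 footprints in control and 1 in arsenite replicate 2. WAC-AS1, the fourth most abundant member, had 1046 and 5930 mRNA-seq reads and 0 and 5 footprints in control, 0.717 per 1000. For the 12 members without control footprints the limit of 3 footprints was at most 13.3 per 1000 (FAM181A-AS1). This lies under the median over members, so setting them there cannot move it from 29.7.

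The host genes of small nucleolar RNAs, which are spliced, exported and then rapidly degraded, were close to the members. The 15 that the rule leaves out had a median of 29.7 footprints per 1000 mRNA-seq reads in control, and 14 of them were called lower than the bulk. Among members, SNHG29 (C17orf76-AS1) had 45 and 398 footprints on 1945 and 13271 reads, or 23.1 and 30.0 per 1000. Its replicates were close to each other and near the median of the 15 host genes.

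Next, the mRNA-seq libraries were compared to see whether arsenite changed the levels of these RNAs. Few members passed the test. In 178 of the 209 the fitted change was within 0.2 on the log2 scale in either direction. One member, THAP9-AS1, rose and 7 fell at an adjusted p under 0.05 in the edgeR test with the replicate as a block. This is 0.478% and 3.35% of the members, against 3.23% higher and 1.37% lower of all 13788 genes tested. The calls depend on the pairing of the libraries and on the test used. Without the replicate block 0 of the 209 were called in either direction. With DESeq2, where the block was kept, 0 were called too. In the edgeR test 33 of the 209 members had an unadjusted p under 0.05, beside 2004 of 9535 coding genes with at least 500 reads.

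The median change was −0.07 over the members (144 negative, 65 positive) and −0.01 over all genes tested. Of the 9535 coding genes with at least 500 reads, 430 rose and 164 fell, with a median of −0.000676. The median of members was −0.07 in replicate 1 and −0.06 in replicate 2. Nuclear RNAs had a median of 0.02 (1 of 7 fell), cytoplasmic RNAs −0.07 (0 of 4 called) and RNAs of both compartments −0.10 (0 of 3 called).

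XIST was the most abundant RNA to change. It stood at 802 and 649 CPM in control and at 714 and 551 in arsenite. Arsenite was lower in both replicates, although the groups overlapped, and the fall was 0.21 on the log2 scale (log2 −0.21 ± 0.05 SE, adjusted p = 0.00297). The others on the nuclear list were not called. NEAT1 stood at 152 and 215 CPM in control and 150 and 234 in arsenite (log2 0.08 ± 0.05 SE, adjusted p = 0.466), and MALAT1 had a log2 change of 0.05 ± 0.05 SE (adjusted p = 0.660).

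THAP9-AS1, antisense to a gene derived from a DNA transposase, stood at 40.3 and 73.2 CPM in control and 46.4 and 88.7 in arsenite. It was higher in arsenite in both replicates (log2 0.27 ± 0.07 SE, adjusted p = 0.00694), with overlap of the groups.

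SNHG19 (LOC100507303) stood at 23.5 and 30.9 CPM in control and 19.2 and 24.4 in arsenite (log2 −0.33 ± 0.09 SE, adjusted p = 0.0191). LOC100507460 stood at 97.0 and 70.7 CPM in control and 78.2 and 58.6 in arsenite (log2 −0.28 ± 0.07 SE, adjusted p = 0.00273). Both were lower in each replicate, with overlap of the groups. SMIM30 stood at 117 and 119 CPM in control and 99.0 and 106 in arsenite, without overlap, and its fall of 0.19 on the log2 scale had an adjusted p of 0.0440, a call that was also lost with no filter on low counts and with the row of most ribo-seq reads. LOC284412, a low-level RNA at 6.63 and 18.1 CPM in control and 4.10 and 13.6 in arsenite, had the largest fall with 1 sign in both replicates (log2 −0.43 ± 0.12 SE, adjusted p = 0.0167).

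LINC00324 and PCGF3-AS1 (LOC100129917) were also called lower, but their fall was in replicate 2 alone. LINC00324 stood at 8.93 and 23.2 CPM in control and 8.98 and 15.3 in arsenite (log2 −0.53 ± 0.11 SE, adjusted p = 0.000619). PCGF3-AS1 had 31 and 327 mRNA-seq reads in control and 31 and 249 in arsenite (log2 −0.48 ± 0.13 SE, adjusted p = 0.00988). In replicate 1 the raw reads of either RNA were equal between the groups, 35 for LINC00324 and 31 for PCGF3-AS1.

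**Figure D4:**
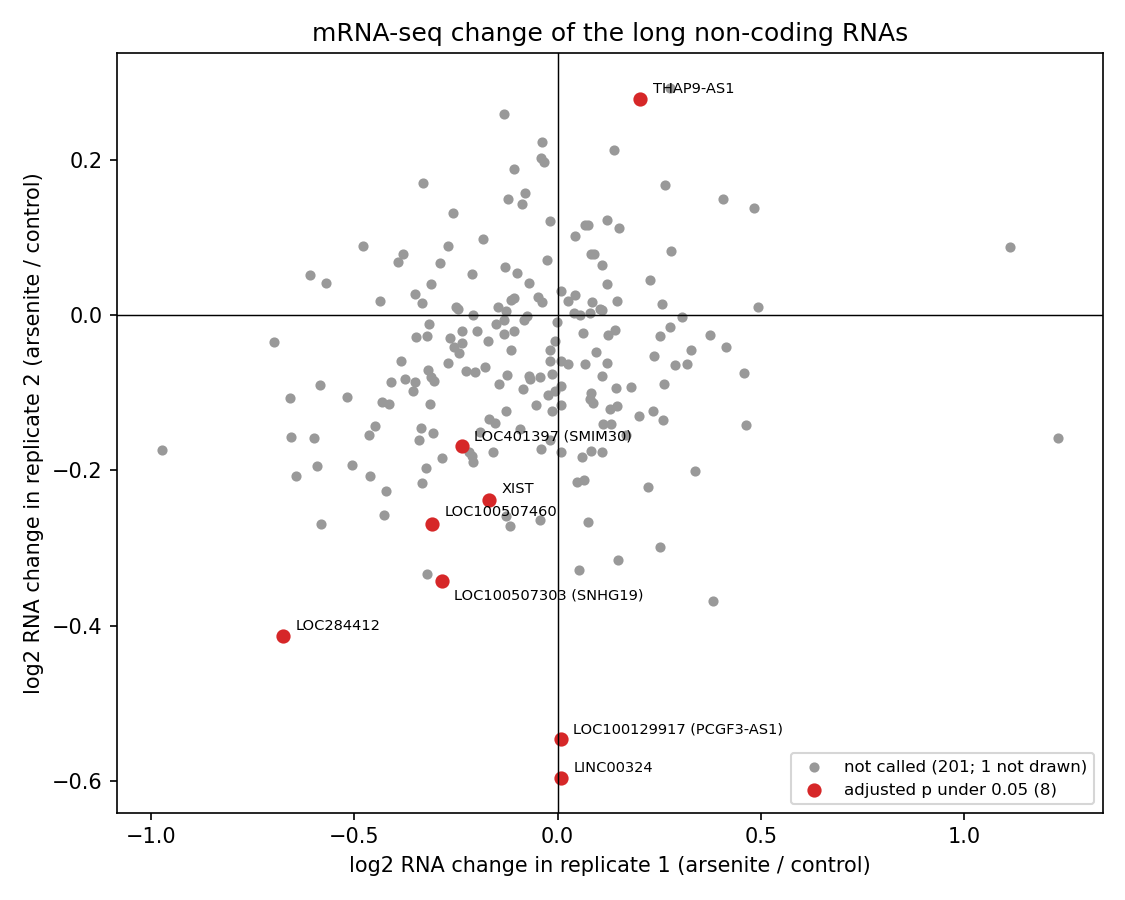
Log2 change of mRNA-seq reads in arsenite over control in replicate 1 (horizontal axis) and replicate 2 (vertical axis) for the members, with the 8 RNAs at an adjusted p under 0.05 in red. Of these, 6 lie on the same side of 0 in both replicates, while LINC00324 and PCGF3-AS1 lie at 0 in replicate 1; FAM181A-AS1, with 0 reads in 1 control library, is not drawn.

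The coding genes for proteins that work with these RNAs were looked up as well. Of 12 listed paraspeckle proteins, which assemble on NEAT1, 4 rose at the mRNA level and 0 fell, with a median log2 change of 0.14, beside the 3.23% higher and 1.37% lower of all genes tested. SFPQ rose most (log2 0.29 ± 0.05 SE), and NONO, HNRNPK and CPSF6 also rose. Of 4 genes for Pumilio proteins and other NORAD partners, KHDRBS1 rose (log2 0.18 ± 0.05 SE). Of 9 genes listed by symbol for nuclear RNA decay, SKIV2L2, a helicase of the nuclear exosome, rose (log2 0.22 ± 0.05 SE). Of 10 factors of nonsense-mediated decay 0 were called.

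Finally, it was asked whether arsenite altered the footprints on these RNAs. The coding medians were 171.2 and 105.6 footprints per 1000 mRNA-seq reads in arsenite against 315.8 and 272.3 in control, but such values move with the depth of the libraries. Each change was therefore taken relative to the other genes of the same libraries. The study reports a strong general fall of translation in arsenite, which such relative changes do not show. Higher or lower in the sums and tests below thus means relative to other genes, not in absolute amount. Summed over all members, footprints per mRNA-seq read came to 9.50% and 12.1% of the coding genes' value in control and to 8.97% and 18.5% in arsenite. The mean was 10.8% ± 1.85 (SD, n = 2) in control and 13.7% ± 6.74 (SD, n = 2) in arsenite. The groups overlapped, and the replicates moved in opposite directions: the ratio of arsenite to control was 0.944 in replicate 1 and 1.53 in replicate 2.

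Without LINC00324 the sums were 8.48% and 9.41% in control and 8.80% and 13.9% in arsenite, a ratio of 1.04 and 1.48. Pseudogenes had 11.1% and 9.01% in control and 16.2% and 15.8% in arsenite, higher in both replicates and without overlap, on 931 footprints in control and 663 in arsenite. The 15 host genes of small nucleolar RNAs outside the members had 8.53% and 9.42% in control and 9.72% and 14.0% in arsenite, also higher in both replicates and without overlap. Members with a listed protein had 26.4% and 19.1% in control and 21.3% and 24.5% in arsenite, with overlap. Without the non-coding row HNRNPU-AS1 they had 28.9% and 24.3% in control and 23.3% and 31.4% in arsenite, also with overlap. The nuclear list had 2.80% and 5.10% in control and 3.19% and 9.59% in arsenite, and the cytoplasmic list 5.20% and 3.67% in control and 3.99% and 5.01% in arsenite, both with overlap. With 2 replicates a group these sums were not tested.

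**Figure D5:**
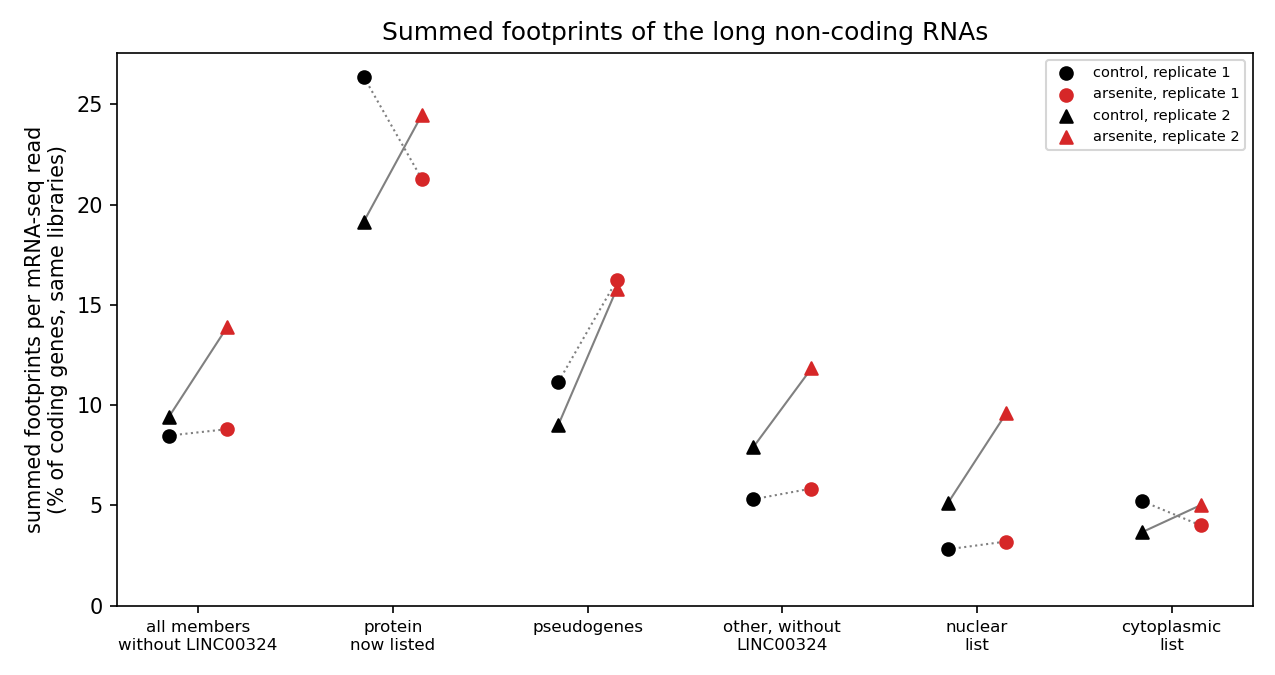
Summed footprints per mRNA-seq read of groups of members as a percentage of the same value for coding genes (vertical axis), in control (black) and arsenite (red), replicate 1 as circles with dotted lines and replicate 2 as triangles with solid lines. For all members without LINC00324 the sum is nearly level in replicate 1 (8.48% to 8.80%) and higher in arsenite in replicate 2 (9.41% to 13.9%), and the pseudogenes are higher in arsenite in both.

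Few members could be tested one by one, since the median member had 27 footprints over the 4 ribo-seq libraries and 27 members had 100 or more. The filter of a mean of 10 footprints left 75 of the 209 for the tests of footprints and of translation efficiency (TE, the change of footprints beyond that of mRNA), and 134 were not tested. In the test of footprints 2 were higher, MALAT1 and ZNF271, against 2.28% of 10448 genes, and 0 were lower, against 2.07%. In the test of TE 2 were higher, ZNF271 and TUG1, against 1.1% of 10403 genes, and 0 were lower, against 1.07%. At an unadjusted p under 0.05 in the edgeR tests, 13 of the 75 were found for footprints and 19 for TE in either direction. Of the 9252 coding genes with at least 500 mRNA-seq reads that were tested, 1746 and 2049 were. DESeq2 called 0 and 1 of the members higher, and without the replicate block 0 were called higher in either test. The TE test called 11 higher with no filter on low counts and 0 with a mean of at least 50. That stricter filter left out ZNF271 and TUG1, so it did not retest their calls. The footprint test called 0 when the reads of coding genes were taken from the other region. The median of either change rests on replicate 2: over the 75, which the filter on footprints selected, the median TE change was −0.01 in replicate 1 and 0.53 in replicate 2.

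ZNF271, a zinc finger pseudogene now named ZNF271P, had 19 and 71 footprints in control and 19 and 84 in arsenite, while its mRNA-seq reads were 377 and 1832 in control and 370 and 1956 in arsenite. Its footprints held their number in libraries that were shallower in arsenite. The change was 1.28 ± 0.32 SE for footprints (adjusted p = 0.0116) and 1.39 ± 0.23 SE for TE (adjusted p = 0.0263), on the log2 scale and positive in both replicates.

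TUG1 had 12 and 81 footprints in control and 13 and 69 in arsenite. Its TE change was 1.07 ± 0.23 SE on the log2 scale (adjusted p = 0.0464), with 1.10 in replicate 1 and 1.02 in replicate 2. MALAT1 had a footprint change of 0.98 ± 0.30 SE (adjusted p = 0.0460) and a TE change of 0.94 ± 0.27 SE (adjusted p = 0.0882), positive in both replicates. NORAD had a TE change of 1.40 ± 0.41 SE (adjusted p = 0.0976) on 41 footprints in all. XIST had −0.48 in replicate 1 and 0.82 in replicate 2 and was not called (adjusted p = 0.219).

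Among the 14 members with a listed protein that were tested for TE, TUG1 was the 1 called, and the TE changes of SMIM26 (0.18 ± 0.27 SE), NBDY (0.15 ± 0.22 SE) and SMIM30 (−0.09 ± 0.24 SE) were smaller than their errors. NCBP2AS2 went from 18 and 83 footprints in control to 3 and 81 in arsenite, down in replicate 1 and up in replicate 2 after scaling.

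Among RNAs outside the members, 11 host genes of small nucleolar RNAs were tested for TE, with a median log2 change of 0.13, and 1 was called. This was SNHG1, which had 7 and 110 footprints in control and 13 and 167 in arsenite (TE change 1.68 ± 0.21 SE on the log2 scale, adjusted p = 0.00918). Of the 5 small structured RNAs, which are not translated, 4 passed the filter, and all 4 were called higher in footprints relative to library size. RN7SK, the RNA that holds the elongation factor P-TEFb, had 14 and 225 footprints in control and 19 and 225 in arsenite, a log2 change of 1.25 ± 0.27 SE (adjusted p = 0.00372) and RMRP one of 1.82 ± 0.24 SE (adjusted p = 8.01e-07). The raw footprints of RNU2-1 went from 734 and 2310 to 1084 and 1083 between control and arsenite, a lower raw number in replicate 2. The part that such fragments had in the changes of ZNF271, TUG1 and MALAT1 was not tested.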

How the data were processed

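The study made ribo-seq and mRNA-seq libraries from 2 replicates of vehicle-treated and arsenite-treated HEK293T cells. Footprints of 29 to 35 nt came from the 80S peak, and mRNA-seq fragments of like size from poly(A) RNA. Per the labels and the study's methods, the authors trimmed adapters with cutadapt, removed ribosomal reads, aligned to the sense strand of RefSeq transcripts with Bowtie 1.0.0 and discarded reads that fitted more than 1 gene. The deposited values are raw read counts per transcript, for the whole transcript and for its coding region. The genome build is not given in the sources used here. The deposited tables hold no reading frame, which was not analysed here.

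The members, the gene lists and the RNAs named were chosen with earlier results of these data known. Named were the RNAs of the localisation lists, up to 10 members with a listed protein by mRNA-seq reads, the 5 most abundant, the 5 with the highest and the 5 with the lowest footprints per read, and up to 5 called in each direction with 1 sign in both replicates. LINC00324 in arsenite, PCGF3-AS1, DLEU1 and the remaining members with a listed protein were added after their values were seen. One gene of the paraspeckle protein list is not reported here. Counts were fitted with edgeR 4.0.16 (quasi-likelihood test, TMM, filter of 10 counts on a gene's mean, Benjamini-Hochberg over all genes tested) in R 4.3.3. The RNA and footprint tests used 4 libraries each, the TE test was the interaction of assay and treatment over 8, and the footprints per mRNA-seq read compared both assays in control. In the footprint and TE tests, footprints of coding genes were those in the coding region. The replicate was a block in each test, since replicates differed in adapter and sequencing runs, and deviations from the group means were correlated between same-numbered libraries (0.68 in mRNA-seq, 0.672 in ribo-seq). The scripts were tested on simulated data. CPM use TMM-scaled library sizes. Depth per library stands in the text, and limits of 3 counts cover counting error only. Alternatives were DESeq2 1.42.0, upper-quartile scaling, no filter or a mean of 50 counts, no replicate block, other rows or regions, read limits of 200 and 1000, no pseudogenes, and each replicate left out.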

Additional observations from a re-analysis of the deposited data

How the results depend on the processing

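The shortfall of footprints in control kept its direction under the alternatives that were run, while calls in arsenite were lost under some of them. For RNA, 0 members were called higher and 0 lower with DESeq2 and also with no replicate block. Among members with at least 1000 mRNA-seq reads 4 were lower, since LOC284412, LINC00324 and PCGF3-AS1 did not reach that limit. The median log2 RNA change was −0.0617 with DESeq2, −0.0777 with upper-quartile scaling and −0.0738 with at least 1000 reads. The RNA change of LINC00324 ran from −0.596 without replicate 1 to 0.00767 without replicate 2, where its reads were equal. For footprints, 0 were higher with DESeq2, with no replicate block and with the other read region for coding genes. One was higher with a mean of at least 50 counts, with the row of most ribo-seq reads and without pseudogenes, a count of 1 in each. In the first and last of these ZNF271, a pseudogene under that mean, was left out and not retested. The median footprint change was 0.024 with a mean of 50 counts and ran from 0.0586 to 0.514 with a replicate left out. For TE, 1 was higher with DESeq2, upper-quartile scaling, the other region and without pseudogenes, and 11 with no filter. With a mean of 50 counts and with no replicate block 0 were higher. The mean of 50 left out ZNF271 and TUG1, and the set without pseudogenes left out ZNF271, so these settings did not retest those calls. The median TE change over the 75 tested, which the filter on footprints selected, was 0.524 and ran from −0.0133 without replicate 2 to 0.532 without replicate 1. For footprints per mRNA-seq read, 2 were higher and 402 lower at a limit of 200 reads, and 0 and 97 at 1000, where the median was −3.92. These limits change the number of members, so the counts do not compare with the 188 of 209 called lower. Of all genes tested, 16.1% were higher and 22.4% lower. With a replicate left out the median of the 209 members ran from −3.45 to −3.21. The cytoplasmic minus the nuclear median (log2 −0.57) then ran from −0.981 to −0.527. The summed control ratio was 8.94% without LINC00324, which was added after seeing the data. Of the footprints per mRNA-seq read of the RNAs named, SMIM30 (log2 −0.80) and LOC100507460 (−1.4) lost their call without the block. In each case the cause was not tested. With 2 replicates a group, and 27 footprints for the median member, small changes in footprints were not detectable at this depth.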
